A study of Mus musculus with 6 samples.

Results

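The genes described are 10 markers of hepatic stellate cells, namely Reln, Lrat, Des, Lhx2, Hand2, Pdgfrb, Pdgfra, Dcn, Acta2 and Ngfr, out of 21887 protein-coding genes. Their accessible sites were taken as all intervals that overlapped the RefSeq gene span or the 10 kb on either side of it, which gave 54 of the 120905 intervals in the list. The list came from ATAC-seq, in which a transposase cuts and tags open DNA. It combined 3 libraries from livers of C57BL/6J mice and 3 from livers of 129S1/SvImJ mice, both inbred strains, and all 6 came from wild-type males given a high-fat diet. The list holds positions only, with no strain, library, read count or score, so the strains were not compared, the depth is unknown, and the values below have neither replicates nor an error. The labels abbreviate the name of the isolated cells or nuclei that were tagged, without spelling it out, so the share of stellate cells among the cells used is unknown. In whole tissue, few stellate cells and closed chromatin in those cells cannot be told apart, and an interval near one of these genes cannot be assigned to a cell type from its position.

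Stellate cells lie between the sinusoidal endothelium and the hepatocytes and hold most of the vitamin A of the body as retinyl esters in lipid droplets. After liver injury they lose these droplets, become contractile myofibroblasts and deposit collagen, which makes them the main source of scar in hepatic fibrosis. Signalling through platelet-derived growth factor (PDGF) drives their proliferation, and transforming growth factor beta drives their matrix production.

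Every one of the 10 genes had at least 1 interval, against 83.9% of all protein-coding genes. The count ran from 1 in Lrat and in Ngfr to 22 in Reln, with a median of 3.5 against 3 over all protein-coding genes. An interval within 1 kb of either end of the gene was present in 7 of the 10, against 61.5% of all protein-coding genes. Des, Pdgfrb and Ngfr had none there. These shares are close to those of protein-coding genes at large, so they do not set the 10 genes apart. By centre, 36 of the 54 intervals lay inside a gene, 21 of them in Reln, and 18 lay in the flanks.

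The genes differed at their promoters. A promoter window is the stretch from 250 bases before to 50 bases after a RefSeq start site, and windows were matched for 8 of the 10 genes, Lhx2 having 2 of them. Pdgfrb and Dcn are therefore described by their lower- and upper-coordinate ends. An interval overlapped a promoter window in 3 of the 8 genes, Reln, Lrat and Lhx2, against 52.1% of 17492 protein-coding genes in the same table. In all 3 it was wider than the narrowest width of the list, as it was for 44.4% of genes in the table. That narrowest width is 2 bp under the median of 203 bp and is shared by 46.2% of all intervals. Both windows of Lhx2 were overlapped, as were all windows of 28.2% of the 2761 protein-coding genes with more than 1. The 250 bases before each of these 4 start sites follow, from RefSeq (build GRCm38.p6, which is mm10). Theirs were the only matched windows that an interval overlapped, and Pdgfrb and Dcn had no window to check. Capitals mark the bases that lie in an interval, each sequence reads 5′ to 3′ on the strand of its gene, and the genomic positions are chr5:22344706-22344955 (minus strand) for Reln, chr3:82903975-82904224 (minus strand) for Lrat, and chr2:38339031-38339280 and chr2:38351058-38351307 (plus strand) for the first and second start of Lhx2.
Reln: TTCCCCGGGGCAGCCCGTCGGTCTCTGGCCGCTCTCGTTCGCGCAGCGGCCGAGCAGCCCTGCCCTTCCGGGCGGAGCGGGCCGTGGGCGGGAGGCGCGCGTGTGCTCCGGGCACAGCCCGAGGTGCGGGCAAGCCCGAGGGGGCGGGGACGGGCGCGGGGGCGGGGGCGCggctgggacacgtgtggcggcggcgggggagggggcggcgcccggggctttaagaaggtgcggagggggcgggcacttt
Lrat: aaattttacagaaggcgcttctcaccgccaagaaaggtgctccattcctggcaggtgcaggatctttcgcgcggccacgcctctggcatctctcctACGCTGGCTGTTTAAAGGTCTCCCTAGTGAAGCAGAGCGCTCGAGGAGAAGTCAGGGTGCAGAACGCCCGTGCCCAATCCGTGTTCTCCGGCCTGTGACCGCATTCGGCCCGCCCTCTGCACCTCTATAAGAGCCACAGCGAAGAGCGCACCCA
Lhx2 first start: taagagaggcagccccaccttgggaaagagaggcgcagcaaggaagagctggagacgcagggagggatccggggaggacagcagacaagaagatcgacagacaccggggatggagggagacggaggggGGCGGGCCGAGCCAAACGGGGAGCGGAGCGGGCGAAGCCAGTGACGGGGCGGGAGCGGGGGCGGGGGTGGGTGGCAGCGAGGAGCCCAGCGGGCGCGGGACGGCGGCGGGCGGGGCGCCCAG
Lhx2 second start: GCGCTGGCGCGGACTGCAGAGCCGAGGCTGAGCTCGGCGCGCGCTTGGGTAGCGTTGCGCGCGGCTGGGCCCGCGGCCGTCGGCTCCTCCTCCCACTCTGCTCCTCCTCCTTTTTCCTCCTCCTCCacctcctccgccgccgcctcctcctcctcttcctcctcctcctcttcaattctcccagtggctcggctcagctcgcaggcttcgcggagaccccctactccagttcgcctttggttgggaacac

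The interval at Reln covered 171 of these 250 bases and ended short of the start site. At Lrat the last 154 bases before the start were covered, at the first Lhx2 start the last 122, and at the second Lhx2 start the 126 bases farthest from it. The median over all promoter windows of protein-coding genes was 13 CpG dinucleotides per 300 bases. The 4 windows were above it, with 47 in Reln, 34 and 29 in Lhx2 and 21 in Lrat. Promoter windows of all protein-coding genes that overlapped an interval had a median of 22 CpG, and those that did not had a median of 5. The letters GGGCGG, a GC box bound by Sp1-type factors, were searched on both strands. They occurred 6 times in the Reln window, 4 times in the first and 0 times in the second Lhx2 window, and 2 times in the Lrat window. Of all 21263 windows 46.2% held at least 1 GGGCGG, with 68.5% among windows on an interval and 25.3% among the rest.

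The other 5 windows overlapped no interval. Ngfr and Hand2 are shown for contrast, because their windows held the most CpG of these 5. Capitals here mark GGGCGG and CCAAT, a box bound by NF-Y, on either strand. The positions are chr11:95587699-95587948 (minus strand) for Ngfr and chr8:57320733-57320982 (plus strand) for Hand2.
Ngfr: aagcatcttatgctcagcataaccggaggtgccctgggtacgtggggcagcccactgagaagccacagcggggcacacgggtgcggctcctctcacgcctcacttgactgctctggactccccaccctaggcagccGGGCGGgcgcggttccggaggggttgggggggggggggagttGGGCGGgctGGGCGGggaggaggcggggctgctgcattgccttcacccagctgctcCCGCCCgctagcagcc
Hand2: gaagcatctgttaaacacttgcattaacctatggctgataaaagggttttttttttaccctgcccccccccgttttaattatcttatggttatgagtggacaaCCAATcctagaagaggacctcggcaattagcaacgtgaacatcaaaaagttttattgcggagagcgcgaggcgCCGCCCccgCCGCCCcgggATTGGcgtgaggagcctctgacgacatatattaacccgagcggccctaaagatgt

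The Ngfr window had 23 CpG and 4 GGGCGG, values like those of the windows on an interval, and the Hand2 window had 17 CpG, 2 GGGCGG and 2 CCAAT. The Des window had 2 GGGCGG and 11 CpG. Acta2 with 6 CpG and Pdgfra with 5 held neither box. CCAAT was found in 38.2% of all windows and also in the Lrat window, 81 bases before the start. The other letters searched were TATAAA, found in none of the 9 windows and in 12.6% of all, TGANTCA, the AP-1 site, found in none and in 6.99% of all, and CANNTG, the E-box, found in 8 of the 9 windows, all but the first of Lhx2, and in 69.0% of all. The CArG box, which binds serum response factor at smooth muscle genes, was searched as CC, 6 letters of A or T, and GG. It had no exact match in the 9 windows and occurred in 1.52% of all. The Acta2 window held CCCTATATGG and CCTTGTTTGG, which come close to this pattern but were not counted as matches. Inexact forms were not searched in the other windows. Matches of GGGCGG and CCAAT did not overlap each other in the sequences shown. A missing match says only that these letters are not in the window.

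**Figure D1:**
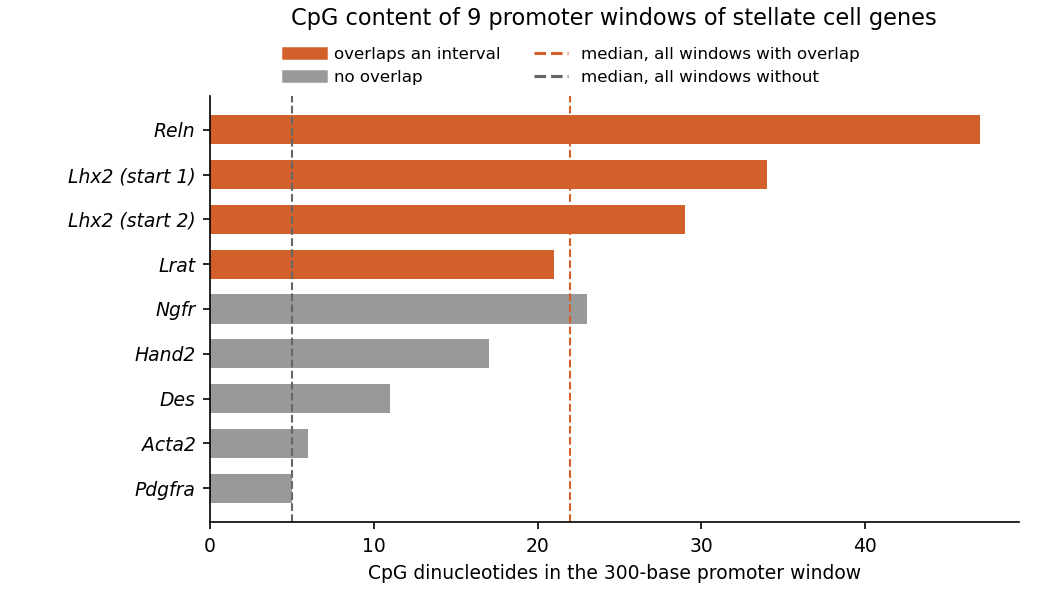
CpG dinucleotides (horizontal axis) in each 300-base promoter window of 8 stellate cell genes, coloured by overlap with an accessible interval, with the medians of all windows that overlap an interval (22) and that do not (5) as dashed lines. The 4 windows on an interval hold 21 to 47 CpG and the 5 others 5 to 23, so the groups overlap at Lrat and Ngfr.

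Lrat encodes lecithin retinol acyltransferase, the enzyme that makes the retinyl esters stored by stellate cells. Its gene spans 11.4 kb (chr3:82892582-82903974, minus strand). The only interval in the gene and its flanks was 252 bp wide, at chr3:82903877-82904128, and its centre lay 28 bp upstream of the start site. Of 500 protein-coding genes of similar length, 16.6% had fewer intervals, 15.6% also had 1 and 67.8% had more, with a median of 2. With the flanks included, Lrat therefore combined a low count with an interval over its start that is wider than most, since 9.35% of all intervals are at least 250 bp wide. Without flanks its count of 1 equalled the median of genes of similar length, at percentile 53.5. The long noncoding RNA gene Rbm46os overlaps the same place.

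Lhx2 and Hand2, both transcription factor genes active in stellate cells, had high counts for their length when the 10 kb flanks were included. Lhx2, a LIM homeobox factor that restrains stellate cell activation, spans 30.5 kb (chr2:38339271-38369737, plus strand). It had 8 intervals against a median of 3 in genes of similar length, of which 92.4% had fewer and 2.6% had more. Besides the intervals at its start sites, centred 21 bp and 228 bp upstream of them, it held a 244 bp interval at chr2:38366338-38366581 and a 213 bp interval centred 774 bp inside its far end. The remaining 4 lay 6.35, 8.81, 9.39 and 9.62 kb beyond the far end, the last pair only 28 bp apart. The interval at the first start and the 244 bp interval also overlap noncoding genes, Gm46736 and Gm13584. Of the 8 intervals, 6 were wider than the narrowest width. Counting only the wider ones, Lhx2 stood at percentile 95.9 of genes of similar length, where a percentile is the share of those genes with fewer intervals plus 0.5 of the share with as many. Without flanks, or with flanks of 5 kb, its count was 4. Its percentile for all widths was 94.9 with 10 kb, 85.1 without flanks and 50 with 50 kb.

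Hand2, a basic helix-loop-helix factor of mesenchymal cells, is the shortest of the 10 genes at 3.54 kb (chr8:57320983-57324517, plus strand). It had 5 intervals against a median of 2, and 92.8% of genes of similar length had fewer. An interval was centred 570 bp upstream of the start site and another 570 bp downstream, both of the narrowest width, so that the start lay in the 939 bp between them. Farther upstream were an interval of 303 bp centred 8.31 kb from the start, at chr8:57312526-57312828, and one of the narrowest width at 6.55 kb. The fifth, of 217 bp, lay 4.20 kb beyond the far end. The 303 bp interval was the widest of all 54, and 1.74% of all intervals were as wide or wider. All 3 upstream intervals also lie in Hand2os1, a long noncoding RNA gene next to Hand2, and counts for the 2 genes cannot be separated there. The count was 1 without flanks and 3 with flanks of 5 kb, and the percentile of 94.9 became 72 without flanks, 58.8 with 50 kb and 71.5 with only wider intervals.

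The PDGF receptor genes had counts slightly under those of genes of their length. Pdgfra encodes the alpha receptor tyrosine kinase and spans 46.9 kb (chr5:75151322-75198206, plus strand). Its 4 intervals compared with a median of 5, with 36.6% of genes of similar length having fewer and 50.4% more. One of 207 bp was centred 7 bp inside the lower end of the gene span, which is 922 bp upstream of the start site in the promoter table. Next came an interval of 206 bp 5.06 kb inside the gene and one of the narrowest width at 5.94 kb, and a 217 bp interval 7.92 kb before the span that overlaps the noncoding gene Gm19583. No interval lay in the rest of the gene or beyond its far end.

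Pdgfrb encodes the beta receptor, the main PDGF receptor of activated stellate cells, and spans 39.9 kb (chr18:61045127-61085067). Its count was 3 against a median of 4, with 28.2% of genes of similar length having fewer and 55.6% more. Of these, 2 lay well inside the gene, a 210 bp interval 23.5 kb from its lower end and one of the narrowest width at 32.1 kb. The third, of 207 bp, lay 5.10 kb below that end within the protein-coding gene Gm52351, to which it was nearer. Neither end of Pdgfrb had an interval within 1 kb, whereas 72.4% of genes of similar length had one at an end.

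Ngfr encodes the low-affinity neurotrophin receptor p75, a surface marker of stellate cells. The gene spans 18.9 kb (chr11:95568818-95587698, minus strand), and its only interval, of the narrowest width at chr11:95586309-95586509, was centred 1289 bp inside the start. Of genes of similar length 8.8% had none, 11.8% also had 1 and 79.4% had more, with a median of 3. This was the lowest position of the 10 genes, percentile 14.7.

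Des and Acta2 encode proteins of the cytoskeleton. Desmin, the product of Des, is an intermediate filament of muscle and of rodent stellate cells. Its gene of 8.29 kb (chr1:75360292-75368579, plus strand) had no interval inside it. By comparison 69.1% of all protein-coding genes had one inside, and 37.8% of genes of similar length had none. The 2 intervals counted for it, among the narrowest of the list, lay 1.91 and 2.96 kb beyond the far end, 841 bp apart, within the noncoding gene Gm15179. A count of 2 equals the median of genes of similar length. The nearest interval to the Des start site was centred 10.2 kb from it.

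Acta2 encodes smooth muscle actin alpha, the usual marker of activated stellate cells, and spans 15.3 kb (chr19:34240336-34255585, minus strand). It had 3 intervals, also the median for its length, and all 3 lay toward the far end. The nearest to the start site, of 216 bp at chr19:34244130-34244345, was 11.1 kb from it. An interval of the narrowest width was centred 1100 bp inside the far end and reached the 1 kb window there with its outermost base. The third, also of the narrowest width, lay 6.19 kb beyond the far end inside the adjoining protein-coding gene Stambpl1. Des and Acta2 were alike in having intervals beyond the far end and none within 10 kb of the start site.

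Matrix proteins are encoded by Dcn and Reln. Dcn encodes decorin, a small proteoglycan that binds collagen, and spans 38.7 kb (chr10:97479500-97518163). It had 5 intervals against a median of 4, with 57.6% of genes of similar length having fewer. They lay 9.88 and 7.30 kb below the lower end, 101 bp inside that end, and 10.6 and 22.0 kb inside the gene. All 5 had the narrowest width. Of 6653 protein-coding genes with at least 5 intervals, 0.616% had only intervals of that width. Many of these genes have more intervals than Dcn and so are less likely to have only narrow ones. The share among genes with exactly 5 was not computed, and the pattern was picked out after the values were seen. With only wider intervals counted, Dcn dropped from percentile 63.6 to 5.7.

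Reln encodes reelin, a large secreted glycoprotein known from neuronal migration that is also a stellate cell marker in liver. Its gene of 460 kb (chr5:21884454-22344705, minus strand) is by far the longest of the 10 and held 22 of the 54 intervals. Genes of similar length, from 316 to 1448 kb, had a median of 23, and 47.8% had fewer, so the high count matched the length of the gene. A group of 3 intervals, the widest 217 bp, stood within 1360 bp at the start, centred 188 bp upstream and 305 and 963 bp inside. Having 3 or more intervals within 1 kb of the start-side end was uncommon, at 0.915% of 17492 protein-coding genes and 1.30% of 384 genes of similar length with a known strand. The gaps between the 3 at Reln were 454 and 280 bp. With intervals within 500 bp joined they become 1 interval, and the Reln count becomes 20. These percentages were not recomputed with joined intervals.

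Further into Reln the intervals were uneven. Of 21 inside the gene, 6 (28.6%) lay in the first 10% of its length from the start, which is 46.0 kb, and 2 (9.52%) in the last 10%. Genes of similar length had 12.4% of 9063 intervals in the first 10% and 10.7% in the last 10%. Among 306 such genes with 10 or more intervals inside, 95.1% had a lower share than Reln in the first 10%. After the start cluster came 4 intervals of the narrowest width at 17.3, 23.8, 29.4 and 37.4 kb. The longest stretch without an interval was 84.9 kb, from 124 to 209 kb into the gene, against a median spacing of 15.0 kb. It was bordered on its far side by a 247 bp interval at chr5:22135635-22135881, the widest in Reln. These positions were described after the values were seen.

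**Figure D2:**
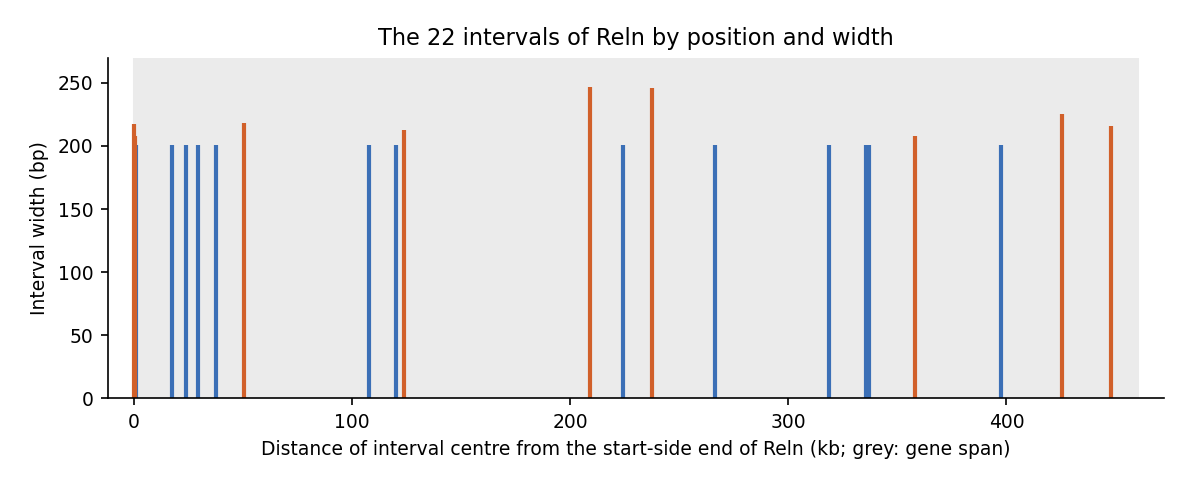
Each bar is an interval of Reln, placed by the distance of its centre from the start-side end in kb (horizontal axis) and drawn to its width in bp (vertical axis), blue for the narrowest width and orange for wider. Bars crowd at the start of the gene, 6 of 21 inside lie in the first 46.0 kb, and the longest gap, of 84.9 kb, begins 124 kb into the gene.

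Set against genes of similar length, 4 of the 10 genes lay above percentile 50 and 6 below it, with a median percentile of 46.6. In order they were Lhx2 and Hand2 (94.9 each), Dcn (63.6), Acta2 (54.6), Reln (48.4), Des (44.7), Pdgfra (43.1), Pdgfrb (36.3), Lrat (24.4) and Ngfr (14.7). The middle 5 of this order, from Acta2 to Pdgfrb, differed from the median of their length group by at most 1 interval, and so did Dcn and Lrat. The far ones were Lhx2 and Hand2, with 5 and 3 intervals above the median, and Ngfr with 2 below. Counts per 100 kb of window ran from 2.57 in Ngfr and 3.19 in Lrat to 15.9 in Lhx2 and 21.2 in Hand2. The medians of genes of similar length were 7.75, 6.44, 6.10 and 8.45, in that order.

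**Figure D3:**
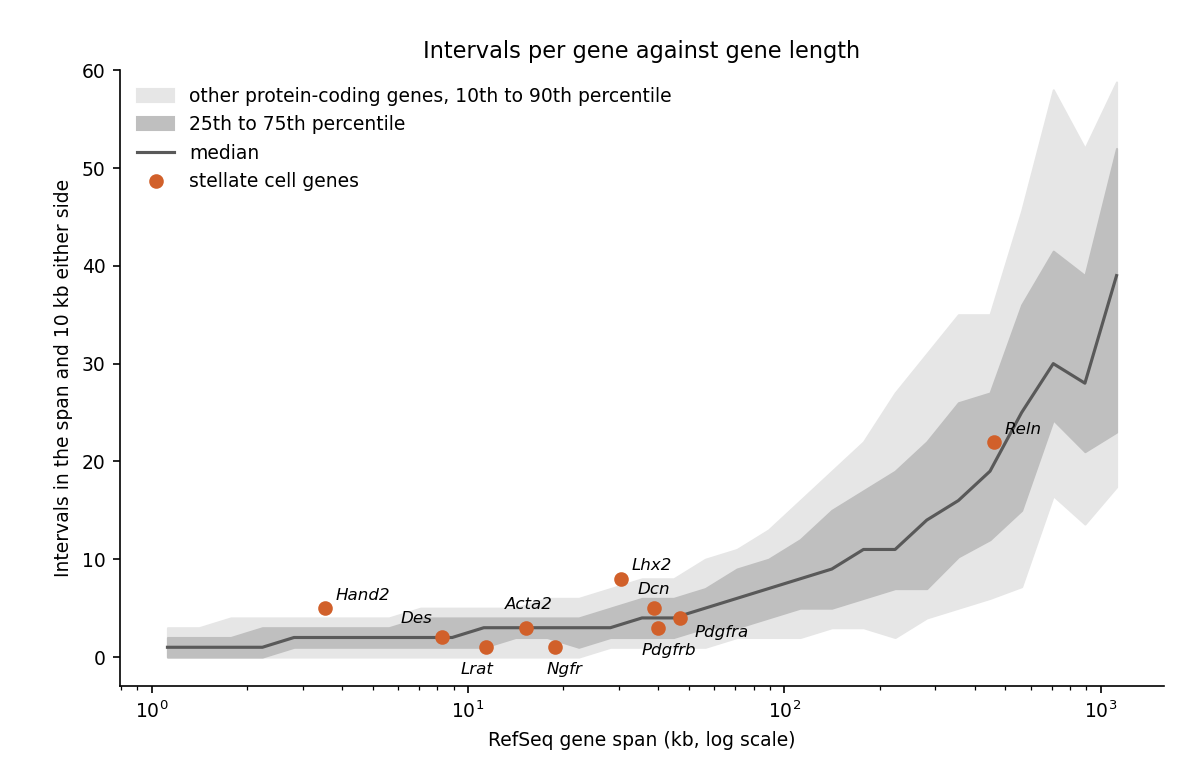
Number of intervals in the gene span and 10 kb either side (vertical axis) against gene span in kb (log axis) for the 10 stellate cell genes (points), over the median and the percentile bands of all other protein-coding genes. Hand2 and Lhx2 lie above the band that ends at the 90th percentile, and Reln lies close to the median for long genes.

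Widths were close to those of the whole list. Of the 54 intervals 29 (53.7%) had the narrowest width, against 46.2% of all 120905. An interval wider than the narrowest width was found in 8 of the 10 genes, against 75.7% of all protein-coding genes, the exceptions being Dcn and Ngfr. Intervals of at least 250 bp were present in Lrat and Hand2 only, 1 each, and 32.1% of protein-coding genes had such an interval. These were 2 of the 54 intervals, whereas 9.35% of all intervals were that wide. An interval wider than the narrowest width lay within 1 kb of an end in 4 genes, Reln, Lrat, Lhx2 and Pdgfra, against 51.7% of all. For the 8 genes with a known strand, 5 had an interval of any width within 1 kb of the start-side end, against 57.8% of 17492 genes, and 2, Lhx2 and Acta2, had one at the far end, against 13.2%. Another interval lay within 1 kb of 12 of the 54 (22.2%), against 17.7% of all intervals.

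Ligands and partners of these genes were read from lists of related genes. Of the PDGF ligand genes, Pdgfc had 23 intervals, Pdgfd 13 and Pdgfa 5, while Pdgfb, the chief ligand of the beta receptor, had none. Among genes of similar length these stood at percentiles 90.7, 36.3, 79.7 and 3.9, in that order. All 7 neurotrophin ligand and receptor genes had an interval, with a median percentile of 86.1. Ntrk2, the BDNF receptor gene, had 21, and the ligand gene Ntf3 and the sorting receptor gene Sort1 had 11 each. In the reelin pathway all 6 genes had an interval and the median percentile was 39.1. The adaptor gene Dab1 had 23 in 1125 kb, the integrin genes Itgb1 and Itga3 had 7 and 5, and of the reelin receptor genes Lrp8 had 4 and Vldlr 1.

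Retinoid and quiescence genes had an interval in 15 of 16 cases, against 83.9% of all protein-coding genes, with a median percentile of 43.1. The retinoic acid receptor gene Rarb had 31 in 651 kb, its partner Rxra 14 and the growth factor gene Hgf 9, and Bmp10 had none. Of 12 mesenchymal transcription factor genes 11 had an interval, against the same 83.9%, with a median percentile of 60.8 and 7 genes above 50. The highest counts were in Tead1 (19), Mef2c (14) and Gata4 (11), at percentiles 73, 65.9 and 87.1 for their length, while Tcf21 had none. Within 1 kb of an end 6 of the 12 had an interval, against 61.5% of all protein-coding genes, and Gata4 and Mef2c were among those without.

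Activation and matrix genes all had an interval (16 of 16, median percentile 57.8). Tgfbr2, a transforming growth factor beta receptor gene, had 19 against a median of 6 and stood at percentile 99.6, although only 5 of them were wider than the narrowest width. Fn1 and Mmp2, for fibronectin and a gelatinase, had 7 each. Contractile and cytoskeletal genes had an interval in 9 of 10 cases (median percentile 44.7). The highest counts were in Myh11 with 6, Tpm2 with 5 and Vim with 4, and the myosin light chain gene Myl9 had none. For its length Myh11 stood at percentile 40.9, against 87.4 for Tpm2 and 82.1 for Vim. Over these 7 lists together 67 of 71 genes had an interval, against 83.9% of all protein-coding genes, the median count was 3, which is also that of all protein-coding genes, and 36 genes lay above percentile 50 and 35 below it.

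Marker lists of other liver cells give the scale of these values. All 10 hepatocyte genes, among them Alb with 3 intervals, Cps1 with 9, Serpina1a with 6 and Hnf4a with 12, had an interval and a percentile above 50, with a median of 79.7. With only wider intervals 5 of the 10 lay above 50. Sinusoidal endothelial genes had a median percentile of 75.3, with 9 of 10 above 50. The highest counts were in Stab2 (17), Tek (9) and Cdh5 (8). Tek, a long gene, was the gene not above 50, at percentile 49. Kupffer cell and macrophage genes had a median of 21.2, with 2 of 10 above 50, and 7 of 10 had an interval. Cd68 had 5 intervals, Marco 4 and Csf1r 3, and Adgre1, C1qa and Cd163 had none. With only wider intervals the median was 38.5 for the stellate cell genes, 45.4 for hepatocyte, 60.5 for endothelial and 18.4 for macrophage genes. The stellate cell median of 46.6 lay between the last and the first 2 of these lists, each of 10 genes, and the differences between lists were not tested.

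**Figure D4:**
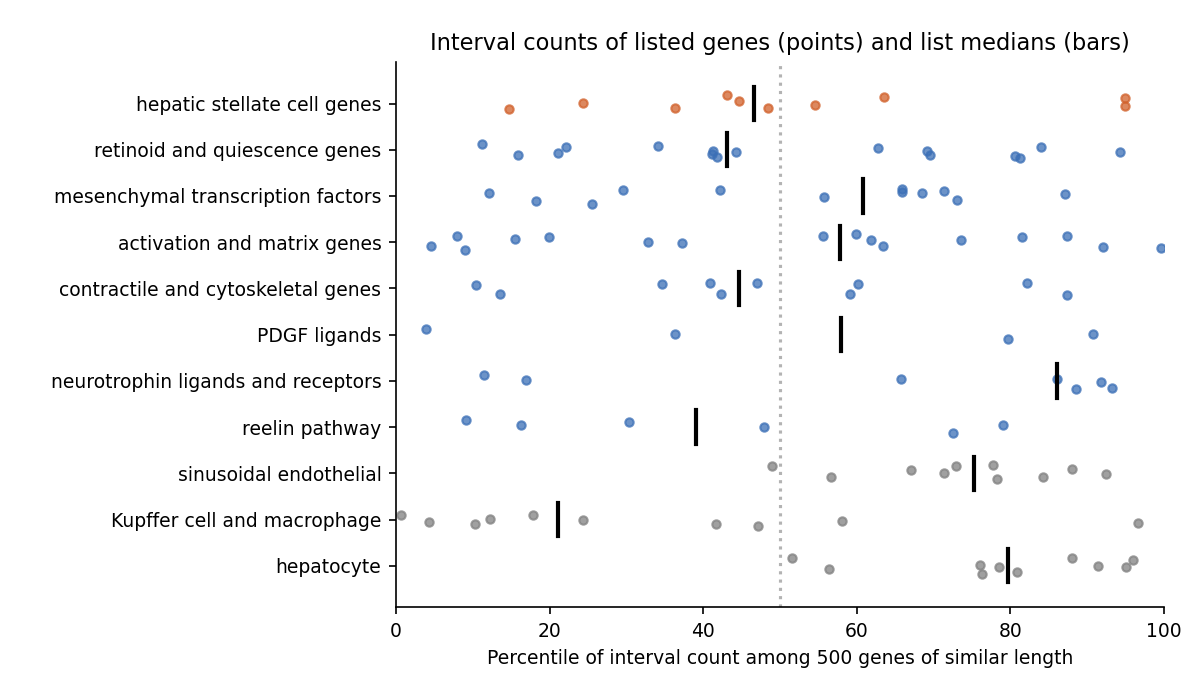
Each point is a gene, placed by the percentile of its interval count among 500 protein-coding genes of similar length (horizontal axis), in the stellate cell set (orange), related gene lists (blue) and other cell types (grey); bars are list medians and the dotted line is percentile 50. The stellate cell genes spread from 14.7 to 94.9 around a median of 46.6, below the medians of the endothelial (75.3) and hepatocyte (79.7) lists and above that of the macrophage list (21.2).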

How the data were processed

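The labels describe ATAC-seq of liver from 3 C57BL/6J and 3 129S1/SvImJ mice. The submitters' processing notes name fastp, Bowtie2, HOMER and build mm10 without versions or order, and their peak threshold, filter on duplicates and way of combining libraries, being not given in the sources used here, stay unknown. A looser or stricter threshold would change how many weak sites were listed. The authors deposited chromosome, start and end of 120905 intervals in 3 columns without a header, with no count, score or library, so depth and precision are unknown and no test over samples was possible.

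Starts were converted to 1-based positions. Gene spans and promoter windows came from RefSeq tables of GRCm38.p6, and an interval counted with 1 bp of overlap. Genes of similar length were the 500 protein-coding genes nearest in span length, without the 10 members, and percentiles give ties a weight of 0.5. For Dab1, among the longest genes, most of these 500 were shorter. All 10 members and all other listed genes were found. Counting was tested on simulated intervals in Python 3.11.15 (numpy 2.4.6, pandas 2.3.3). The members and lists were chosen with earlier results of these data known. The text names all members, from each list the 3 with the highest counts and at most 2 with a count of 0, and a few others chosen after their values were seen (Alb, Cd163, Lrp8, Vldlr). Some listed genes are not reported here. Alternatives were other flanks, end windows, overlap rules, width limits, length groups and joining of intervals within 500 bp.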

Additional observations from a re-analysis of the deposited data

How the results depend on the processing

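The total of 54 intervals became 93 with flanks of 50 kb and 25 with only intervals wider than the narrowest width, and lay between 38 and 54 under the other 6 settings. The count of 7 genes with an interval at an end fell to 4 with only wider intervals (against 51.7% of all protein-coding genes) and lay between 6 and 10 with windows of 500 bp and 5 kb and with interval centres. Acta2 left the count at 500 bp and with interval centres, giving 6 genes each, against 56.0% and 60.6% of all protein-coding genes. At 5 kb all 10 genes were in it, against 76.8% of all protein-coding genes. The 8 genes with an interval wider than the narrowest width became 2 when at least 250 bp was required. The share of all protein-coding genes went from 75.7% to 32.1% with the same change. The median percentile of 46.6 became 52.1 with 200 genes of similar length and 38.5 with only wider intervals, and lay between 44.4 and 51 under the other 4 settings. Hand2, Ngfr and Pdgfrb stayed on their side of percentile 50 in all 6 settings, although Hand2 moved from 94.9 to 72 without flanks, 71.5 with only wider intervals and 58.8 with flanks of 50 kb. Crossings were Lrat at 53.5 without flanks, Des at 53 with 200 genes, Pdgfra at 53.2, Dcn at 5.7 and Acta2 at 30.4 with only wider intervals, Dcn at 45 with flanks of 50 kb, and Reln at 51.3 with 200 genes and 54.4 with genes within 10% in length. Lhx2 was at 50 with flanks of 50 kb. Apart from the choice of flank, width or genes itself, the cause was not tested. Libraries could not be left out in turn, and the planned strain difference was not run. No paired analysis was possible because the combined list has no column for a library or strain. Depth limits every value, since a site missed at low coverage cannot be told from closed chromatin.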

Other observations

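Wider surroundings ordered the genes differently from their near flanks. Lhx2 had 8 intervals with flanks of 10 kb and 9 with flanks of 50 kb, so nearly all of its open sites in that range lay close to the gene. With the same widening the count of Lrat went from 1 to 7, of Acta2 from 3 to 9, of Des from 2 to 7 and of Pdgfra from 4 to 8, whereas Ngfr went from 1 to 3, the lowest of the 10 at 50 kb. Of the rest, Dcn went from 5 to 9, Pdgfrb from 3 to 7, Reln from 22 to 26 and Hand2 from 5 to 8. Genes of similar length gained intervals too: at 50 kb Lrat stood at percentile 44.4, Acta2 at 58.6, Des at 43.2, Pdgfra at 37.6 and Ngfr at 9.7. Intervals added this way were not assigned between neighbouring genes.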
